A study of Rattus norvegicus with 43 samples.

Results

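Retinol enzymes and retinoid binding proteins were examined here as 8 genes, Rdh7, Rdh10, Rdh16, Aldh1a1, Aldh1a2, Rbp4, Crabp1 and Crabp2, in 3 organs (liver, lung and mammary gland) of retinoid-treated female Sprague-Dawley rats. The 8 genes were taken by gene symbol and were read by 11 probe sets, out of 8740 probe sets that named 4736 genes. Rbp4 had 3 probe sets and Rdh16 had 2, and each of the other genes had 1. The rats were 100 days old at the start, and each agent was given for 7 days. The Targretin rats received 60 mg per kg body weight by gavage, the 9cRA (9-cis-retinoic acid) rats 100 mg per kg diet, and the 4HPR (4-hydroxyphenylretinamide) rats 782 mg per kg diet. The diet rats received the diet alone, and no gavage control is named in the labels. A difference between Targretin and diet rats therefore cannot be told apart from an effect of the gavage. Targretin (bexarotene) is a synthetic ligand selective for the retinoid X receptors, 9cRA binds both the retinoid X and the retinoic acid receptors, and 4HPR (fenretinide) is a synthetic amide of retinoic acid. The agents differed in dose and route, so their values are set side by side and no agent is tested against another.

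Vitamin A leaves the liver as retinol bound to retinol binding protein, the product of Rbp4, which travels in plasma with transthyretin and is made chiefly by hepatocytes and also by adipocytes. Inside cells, retinol dehydrogenases such as Rdh7, Rdh10 and Rdh16 oxidise retinol to retinaldehyde, and retinaldehyde dehydrogenases such as Aldh1a1 and Aldh1a2 oxidise retinaldehyde irreversibly to retinoic acid. The cellular retinoic acid binding proteins Crabp1 and Crabp2 then hold retinoic acid in the cell, and Crabp2 is known for passing it to nuclear retinoic acid receptors.

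Each of 43 arrays measured total RNA of 1 organ as MAS5 signal, a linear brightness per probe set. The trimmed mean, leaving out the upper and lower 2%, was nearly the same on every array as deposited (1502 to 1503). There were 3 Targretin, 4 9cRA, 4 4HPR and 4 diet arrays of liver, 3, 4, 4 and 3 of lung, and 3, 4, 3 and 4 of mammary gland, in the same order. Precision is limited by the number of arrays. As the labels do not say that the arrays of a group came from separate rats, p-values measure only the spread between arrays. Log2 changes are on the scale log2(signal + 38.1), with standard errors from limma. Its p-values were adjusted over the whole table, and those under 0.05 after adjustment are called passing. To be tested, a probe set had to exceed the array's 40th percentile on at least 3 arrays of the organ; that percentile lay at 164.0 to 257.5 on liver arrays, 211.3 to 287.9 on mammary gland arrays and 292.4 to 418.1 on lung arrays. By this filter 10 member probe sets were tested in mammary gland, 7 in liver and 6 in lung. The labelled organs carried their markers by summed signal. The sum of 11 hepatocyte genes was 512979 to 608607 in diet liver, and that of 9 lung epithelial genes 287166 to 313256 in diet lung. In diet mammary gland 10 adipocyte genes summed to 196438 to 282511, against 25813 to 37194 in diet liver and 18201 to 21911 in diet lung. For 11 mammary epithelial genes the sums were 163592 to 255169, 14095 to 18500 and 25440 to 26560 in the same order. Of these genes, Krt8 averaged less in diet mammary gland (4684) than in diet liver (5527) and diet lung (6135). Krt19 averaged less in diet mammary gland (4460) than in diet lung (7945), but more than in diet liver (170.5). Krt18, Krt14, Krt5 and Csn2 averaged more in diet mammary gland than in both other organs. Among the adipocyte genes, Lep, Cebpa and Pck1 averaged less in diet mammary gland (4445, 101 and 6658) than in diet liver (4669, 1756 and 20964), and the others averaged more. Hepatocyte genes were also present in mammary gland and lung, and 1 Targretin mammary gland array (array 3) had a summed skeletal muscle signal of 63831, against 1013 to 2926 on the other mammary gland arrays. In organ RNA, fewer cells of a type and less RNA per cell cannot be told apart.

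Promoters are printed for Rdh7, Aldh1a1 and Crabp2, the members with the most stable change in liver in each direction and the largest rise in mammary gland. Of the 8 members, 6 were matched by symbol in the RefSeq promoter table, all but Rdh10 and Rdh16. Each run covers 250 bases before and 50 bases after the annotated start on the gene's own strand (GRCr8). Capitals mark AGGTCA, the 6 letters that many nuclear receptors bind, searched on both strands so that TGACCT is the same letters on the other strand, and TATAAA, the letters of a TATA box. The windows are chr7:65574569-65574868 (minus strand) for Rdh7, chr1:227537370-227537669 (plus strand) for Aldh1a1 and chr2:175714612-175714911 (plus strand) for Crabp2.
Rdh7: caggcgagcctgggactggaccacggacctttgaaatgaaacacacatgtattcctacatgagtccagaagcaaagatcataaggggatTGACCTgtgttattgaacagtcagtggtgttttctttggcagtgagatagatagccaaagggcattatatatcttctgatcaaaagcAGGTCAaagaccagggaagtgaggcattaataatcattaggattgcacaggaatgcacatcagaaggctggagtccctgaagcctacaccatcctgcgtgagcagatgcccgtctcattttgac
Aldh1a1: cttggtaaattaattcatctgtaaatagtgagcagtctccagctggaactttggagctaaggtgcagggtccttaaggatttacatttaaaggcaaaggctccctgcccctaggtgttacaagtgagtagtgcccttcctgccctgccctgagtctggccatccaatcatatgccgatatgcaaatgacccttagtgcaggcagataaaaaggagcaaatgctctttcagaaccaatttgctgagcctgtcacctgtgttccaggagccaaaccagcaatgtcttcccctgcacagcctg
Crabp2: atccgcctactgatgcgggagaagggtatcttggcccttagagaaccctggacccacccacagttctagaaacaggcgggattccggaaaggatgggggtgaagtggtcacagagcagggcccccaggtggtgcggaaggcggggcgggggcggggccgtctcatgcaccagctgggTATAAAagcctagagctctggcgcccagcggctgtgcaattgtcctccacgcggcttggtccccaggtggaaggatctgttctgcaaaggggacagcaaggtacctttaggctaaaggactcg
The Rdh7 window held AGGTCA at both of its marked places, beginning 161 bases before the start on the opposite strand and 74 bases before it on the gene's strand. Neither the Aldh1a1 nor the Crabp2 window held those letters, and the Crabp2 window held TATAAA beginning 73 bases before the start. Of 33469 promoter windows of 300 bases, 16.2% held AGGTCA and 14.2% held TATAAA on either strand. The variant AGTTCA, found in 14.5% of windows, and 2 copies of AGGTCA in a row at a spacing of 1, 2 or 5 bases were in none of the 6 members' windows.

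In diet rats the members had marked organ patterns. Rdh7 was high in liver, Aldh1a1 and Aldh1a2 in lung, Crabp1 and Crabp2 in mammary gland, and Rbp4 in liver and mammary gland. Between diet liver and diet lung, 6 of 8 member probe sets passed, against 55.4% of all probe sets tested. Between diet liver and diet mammary gland, 7 of 10 passed, against 59.4%, and between diet mammary gland and diet lung 7 of 10, against 44.8%. Crabp1 and Crabp2 met the filter in mammary gland alone, and Aldh1a2, Rdh7 and Rbp4 by K03045cds_r_at did not meet it in 1 organ each, so nothing is read from the members' shares. Where a probe set did not meet the filter in an organ, its difference is given as a lower bound, against the higher of the array's own signal and its 40th percentile (means of log2 signal).

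**Figure D1:**
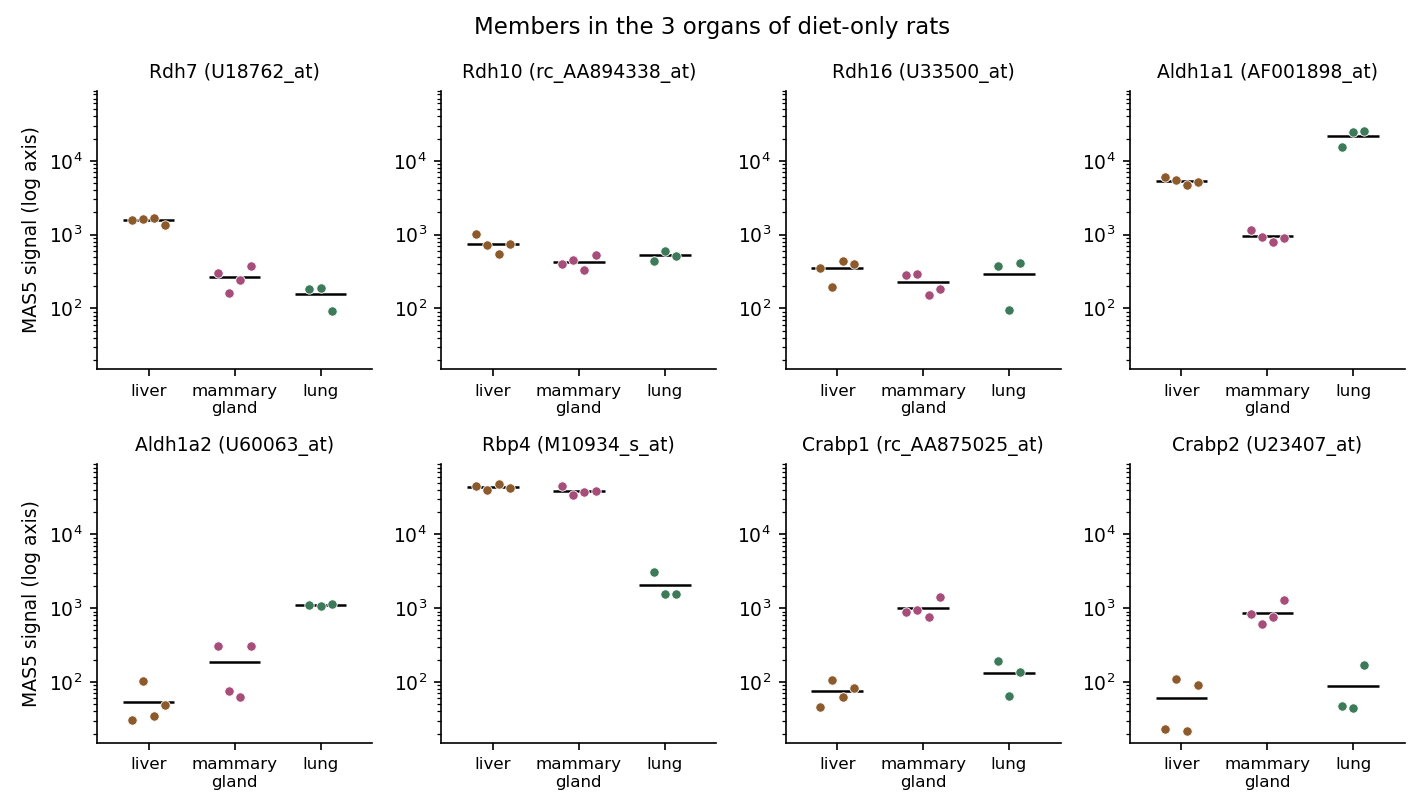
MAS5 signal (log axis) of 8 member probe sets in diet-only liver, mammary gland and lung; points are arrays and bars are means. Aldh1a1 and Aldh1a2 were highest in lung and Crabp1 and Crabp2 in mammary gland, while Rdh10 and Rdh16 passed between no pair of organs.

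Rbp4 had 44922.6, 39651.6, 48520.7 and 42773.4 signal units in diet liver by probe set M10934_s_at, against 44956.3, 34386.4, 37504.1 and 38277.7 in diet mammary gland and 3118.9, 1542.0 and 1540.6 in diet lung. Liver and mammary gland overlapped by this probe set, and every lung array lay far below both. The 3 Rbp4 probe sets placed mammary gland differently against liver: the log2 difference of liver minus mammary gland was 3.09 ± 0.30 by K03045cds_r_at, 1.52 ± 0.31 by K03045cds_s_at and did not pass by M10934_s_at (means 43967 ± 3728 in liver and 38781 ± 4447 in mammary gland, SD, n = 4 each, adjusted p = 0.54). All 3 probe sets had more signal in liver than in lung, by 5.58 ± 0.33 for K03045cds_s_at and 4.46 ± 0.26 for M10934_s_at on the log2 scale. They also had more in mammary gland than in lung, by 4.05 ± 0.33 and 4.28 ± 0.26 in the same order. K03045cds_r_at did not meet the filter in lung, and was at least 67.3-fold higher in liver and at least 7.8-fold higher in mammary gland.

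Among the retinol dehydrogenases, Rdh7 marked the liver. It had 1588.9, 1619.6, 1675.4 and 1357.4 in diet liver, against 303.2, 160.2, 240.5 and 374.0 in diet mammary gland and 186.5, 191.9 and 92.6 in diet lung. Liver exceeded mammary gland by 2.42 ± 0.33 (adjusted p = 5.5e-08) and lung at least 5.12-fold. Rdh7 was at or below 242.5 on every lung array and did not meet the filter there. Rdh7 and Rdh16 are related genes that lie near each other on chromosome 7 (RefSeq, GRCr8), with Rdh9, a pseudogene (Rdh16-ps1) and 1 further gene between them. Whether the probe sets of these relatives share signal was not tested.

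Rdh10, the dehydrogenase known from mouse to be needed in the embryo, varied less by organ. It had 1013.8, 717.7, 554.5 and 738.7 in diet liver, against 400.3, 452.0, 335.1 and 527.9 in diet mammary gland and 445.9, 609.2 and 518.7 in diet lung. No diet mammary gland array reached the lowest diet liver array, yet the difference of 0.75 ± 0.37 did not pass (adjusted p = 0.077); it passed in 4 of 15 alternatives, with adjusted p as low as 0.011. Rdh16 by U33500_at averaged 349 ± 108 in diet liver (SD, n = 4), 227 ± 68.5 in diet mammary gland (SD, n = 4) and 297 ± 175 in diet lung (SD, n = 3), and no organ pair passed. Its other probe set, U33500_g_at, did not meet the filter in any organ and ranged from 23.8 to 297.5 over all arrays.

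The retinaldehyde dehydrogenases were highest in lung. Aldh1a1 had 6030.1, 5501.1, 4713.2 and 5160.6 in diet liver and 1166.3, 941.7, 794.5 and 895.0 in diet mammary gland, against 15317.5, 24379.0 and 25155.6 in diet lung. The 3 organs did not overlap: liver lay below lung by a log2 difference of -1.98 ± 0.22 (adjusted p = 6.7e-10) and above mammary gland by 2.46 ± 0.20 (adjusted p = 3.6e-13). Mammary gland against lung gave the largest gap, -4.43 ± 0.22 (adjusted p = 1.2e-18). Aldh1a2 had 30.5, 101.9, 34.6 and 48.3 in diet liver and 310.4, 74.5, 63.5 and 308.9 in diet mammary gland, against 1112.9, 1065.6 and 1142.9 in diet lung. All 3 lung arrays stood far above the rest, with a log2 difference of -2.57 ± 0.45 for mammary gland against lung. Aldh1a2 did not meet the filter in liver, where it was at least 4.75-fold lower than in lung. Between diet liver and diet mammary gland Aldh1a2 is counted above among the 7 of 10 that passed (limma adjusted p = 0.019). That call was lost in 4 of 15 alternatives. No difference is given for it, since all 4 diet liver arrays and 2 of 4 diet mammary gland arrays were below the filter level.

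The cellular retinoic acid binding proteins were highest in mammary gland. Crabp1 had 45.7, 107.5, 62.4 and 81.8 in diet liver, against 891.5, 936.0, 767.6 and 1407.8 in diet mammary gland, and 195.4, 63.9 and 138.2 in diet lung. Crabp2 had 23.4, 110.2, 21.8 and 90.6 in diet liver, against 833.6, 610.1, 752.7 and 1299.6 in diet mammary gland, and 47.0, 44.3 and 170.5 in diet lung. For both genes every mammary gland array exceeded every liver and lung array. Crabp1 was at least 4.18-fold lower in liver than in mammary gland, and at least 3.21-fold higher in mammary gland than in lung. For Crabp2 the bounds were at least 3.6-fold and at least 2.77-fold in the same order. Neither gene met the filter in liver or in lung, where the highest array of any group stood at 328.7 for Crabp1 and 225.6 for Crabp2.

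Few member changes passed. With Targretin, 3 of 7 member probe sets passed in liver, against 11.1% of all probe sets tested, 2 of 10 in mammary gland, against 13.1%, and 0 of 6 in lung, against 2.39%. With 9cRA, 0 of 7 passed in liver, against 5.16%, 0 of 6 in lung, against 0%, and 0 of 10 in mammary gland, against 0%. With 4HPR, 1 of 7 passed in liver, against 2.78%, 0 of 6 in lung, against 0%, and 0 of 10 in mammary gland, against 0%. At an unadjusted limma p under 0.05, the member counts in lung were 2 of 6 with Targretin (against 23.4% of all probe sets), 0 of 6 with 9cRA (11.1%) and 2 of 6 with 4HPR (4.6%). At the same threshold they were 4 of 7 with Targretin (23.8%), 3 of 7 with 9cRA (19.3%) and 1 of 7 with 4HPR (18.8%) in liver. In mammary gland they were 5 of 10 with Targretin (30.3%), 0 of 10 with 9cRA (18.6%) and 0 of 10 with 4HPR (2.97%). With weights for array quality, limma passed 3 of 6 member probe sets with 4HPR in lung, where 6.71% of all passed under the same weights, and 1 of 7 with 9cRA in liver, where 7.94% did. The shares that passed rest on 3 probe sets at most. The median log2 change of the members with Targretin was -0.10 in liver, against -0.02 over all probe sets tested. In lung it was -0.55, against 0.06, with 0 of 6 passing, and in mammary gland 0.19, against 0.11.

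**Figure D2:**
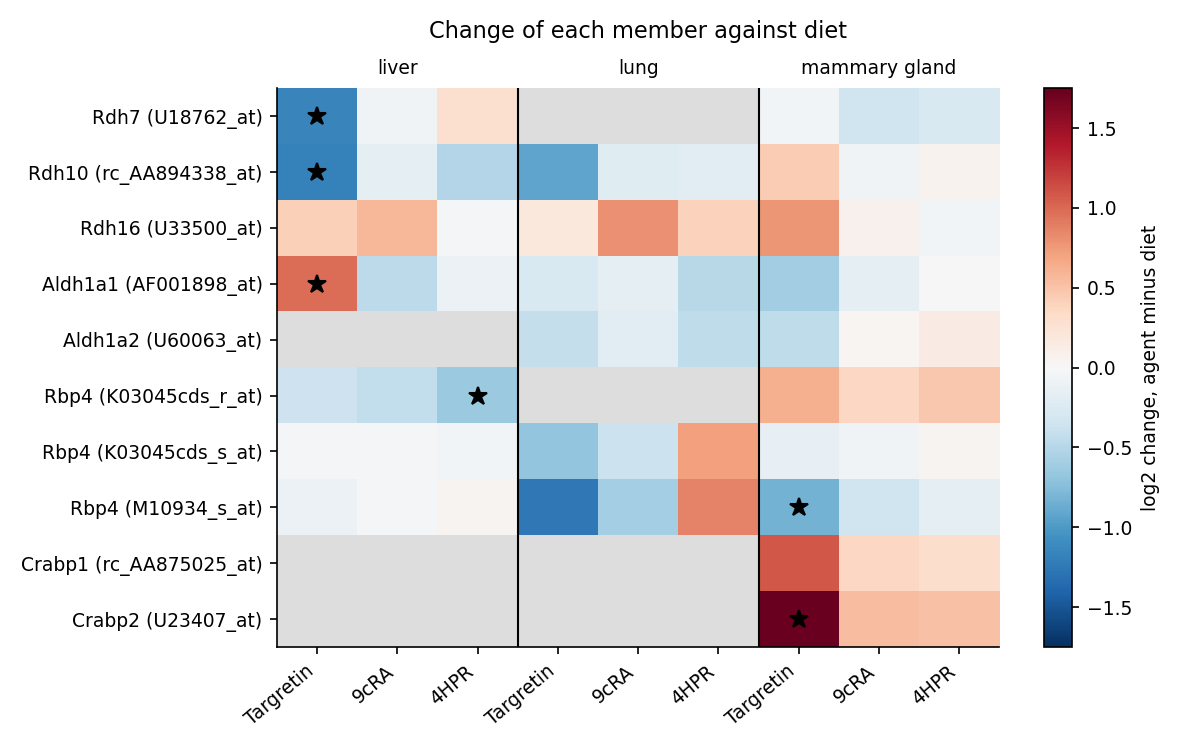
Log2 change (colour) of 10 member probe sets for each agent minus diet in liver, lung and mammary gland; stars mark adjusted p under 0.05 and grey cells did not meet the filter on low signal. The 6 stars fall on Aldh1a1, Rdh7 and Rdh10 with Targretin and 1 Rbp4 probe set with 4HPR in liver, and on Crabp2 and 1 Rbp4 probe set with Targretin in mammary gland.

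In liver, Aldh1a1 was higher and Rdh7 and Rdh10 were lower with Targretin than with diet alone. These are genes of the successive oxidations of retinol. Aldh1a1 had 9966.6, 12619.8 and 9351.4 in Targretin livers, against 6030.1, 5501.1, 4713.2 and 5160.6 in diet livers. Every Targretin array exceeded every diet array, and the ratio of means was 1.99 (10646 ± 1737, n = 3, against 5351 ± 556, n = 4, SD). The log2 change was 0.98 ± 0.22 (adjusted p = 0.0061). With the dietary agents Aldh1a1 had 5391.3, 3956.2, 2939.7 and 3527.1 in 9cRA livers and 3763.0, 4962.4, 4456.2 and 7362.3 in 4HPR livers. Of the 4 9cRA arrays, 3 lay below every diet array, but the change of -0.46 ± 0.20 did not pass (adjusted p = 0.21), and the 4HPR arrays spanned the diet range on both sides.

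Rdh7 had 610.9, 869.5 and 589.6 in Targretin livers, against 1588.9, 1619.6, 1675.4 and 1357.4 in diet livers. The groups did not overlap, the ratio of means was 0.442, and the log2 change was -1.15 ± 0.18 (adjusted p = 2.8e-04). Rdh7 had 1528.8, 1595.4, 1133.4 and 1755.5 in 9cRA livers and 1871.2, 1860.0, 1779.5 and 2057.6 in 4HPR livers. The 4HPR arrays were all above the diet arrays, at 1892 ± 118 against 1560 ± 140 (SD, n = 4 each), but the difference did not pass (adjusted p = 0.39). The 9cRA arrays overlapped the diet arrays. The same probe set in mammary gland ranged from 98.4 to 374.0 over all groups and did not pass with any agent.

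Rdh10 had 450.4, 149.6 and 400.7 in Targretin livers, against 1013.8, 717.7, 554.5 and 738.7 in diet livers. The groups did not overlap and the log2 change was -1.18 ± 0.37 (adjusted p = 0.047). That call was lost without any filter (adjusted p = 0.067) and on leaving out any of 5 single arrays, and without Targretin array 2 the change was -0.75 (adjusted p = 0.27). In 9cRA livers Rdh10 averaged 666 ± 173 and in 4HPR livers 549 ± 224, both overlapping diet livers at 756 ± 190 (SD, n = 4 each). In Targretin lungs Rdh10 had 592.3, 67.5 and 347.6, against 445.9, 609.2 and 518.7 in diet lungs. In Targretin mammary glands it had 524.8, 549.6 and 700.4, against 400.3, 452.0, 335.1 and 527.9 in diet mammary glands. The 3 organs did not pass the F test for a different Targretin change of Rdh10 (adjusted p = 0.083).

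Rdh16 by U33500_at had 425.7, 727.6, 447.6 and 533.1 in 9cRA livers, against 356.7, 194.6, 438.1 and 405.1 in diet livers, a change of 0.59 ± 0.25 that did not pass (adjusted p = 0.21). In Targretin mammary glands it had 334.1, 437.6 and 452.4, against 281.2, 290.0, 153.2 and 185.3 in diet mammary glands. All 3 Targretin arrays were higher there, but the change of 0.78 ± 0.36 did not pass (adjusted p = 0.16).

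**Figure D3:**
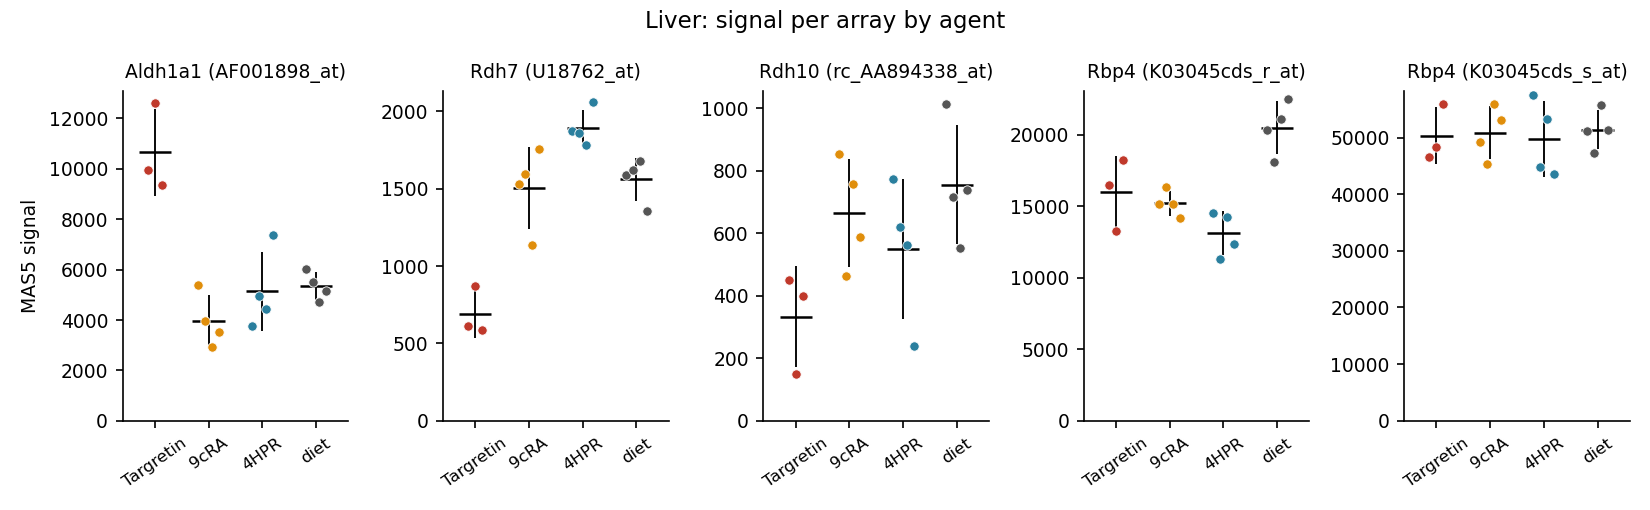
MAS5 signal per liver array with each agent and with diet alone, for Aldh1a1, Rdh7, Rdh10 and 2 Rbp4 probe sets; points are arrays, horizontal bars are means and vertical bars are SD. Targretin arrays lie above diet for Aldh1a1 and below diet for Rdh7 and Rdh10, and the 4HPR arrays lie below diet for Rbp4 by K03045cds_r_at but not by K03045cds_s_at.

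Hepatic Rbp4 depended on the probe set. By K03045cds_r_at it had 16516.5, 13246.0 and 18217.7 in Targretin livers, 15184.9, 16318.1, 15168.7 and 14146.7 in 9cRA livers and 14535.8, 11334.7, 14257.4 and 12353.2 in 4HPR livers, against 20300.7, 18064.6, 21070.9 and 22526.9 in diet livers. All 9cRA and 4HPR arrays and 2 of 3 Targretin arrays were below the lowest diet array. With 4HPR the ratio of means was 0.640 and the log2 change -0.64 ± 0.12 (adjusted p = 0.0099). The changes with 9cRA (-0.43 ± 0.12, adjusted p = 0.057) and with Targretin (-0.36 ± 0.13, adjusted p = 0.095) did not pass; they passed in 4 of 15 and 2 of 14 alternatives, with adjusted p as low as 0.014 and 0.038. The other probe sets gave no such difference: K03045cds_s_at averaged 49802 ± 6721 in 4HPR livers and 51368 ± 3479 in diet livers, and M10934_s_at 45754 ± 5078 in 4HPR livers and 43967 ± 3728 in diet livers (SD, n = 4 each). Neither passed with any agent in liver (adjusted p of 0.708 or more). The arrays do not show which of the 3 probe sets follows the Rbp4 transcript, and the fall with 4HPR holds for K03045cds_r_at alone.

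In mammary gland, Crabp2 was higher with Targretin than with diet alone, and Rbp4 was lower by 1 of its 3 probe sets. Crabp2 had 1829.1, 2062.5 and 6286.6 in Targretin mammary glands, against 833.6, 610.1, 752.7 and 1299.6 in diet mammary glands. The groups did not overlap, the ratio of means was 3.88, and the log2 change was 1.73 ± 0.46 (adjusted p = 0.024). The highest value came from Targretin array 3, the one with skeletal muscle signal, which also had the least adipocyte signal of the Targretin arrays (139868, against 199465 and 214774) and the most mammary epithelial signal (384463, against 263070 and 265208). Without that array the change was 1.17 and did not pass (adjusted p = 0.11), and it did not pass without diet array 2 or 3 either (adjusted p = 0.071 and 0.064). The part of tissue makeup in the result was not tested.

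Crabp2 had 904.9, 944.1, 1336.6 and 2085.8 in 9cRA mammary glands and 618.1, 2054.8 and 1409.7 in 4HPR mammary glands. Both groups overlapped diet, and neither passed (adjusted p = 0.52 with 9cRA and 1.0 with 4HPR). The highest 9cRA array, array 4, also had the highest summed mammary epithelial signal of the 14 mammary gland arrays (529080). Crabp1 had 2945.3, 1346.8 and 2389.9 in Targretin mammary glands, against 891.5, 936.0, 767.6 and 1407.8 in diet mammary glands. Of the 3 Targretin arrays, 2 exceeded every diet array, and the change of 1.09 ± 0.35 did not pass (adjusted p = 0.051). It passed in 4 of 14 alternatives: with a larger pseudocount (adjusted p = 0.049), with array quality weights (0.042), without Targretin array 2 (0.041) and without diet array 4 (0.036). Crabp1 had 1195.5, 2464.5, 899.0 and 969.0 with 9cRA and 952.8, 1598.7 and 1182.9 with 4HPR, both overlapping diet.

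**Figure D4:**
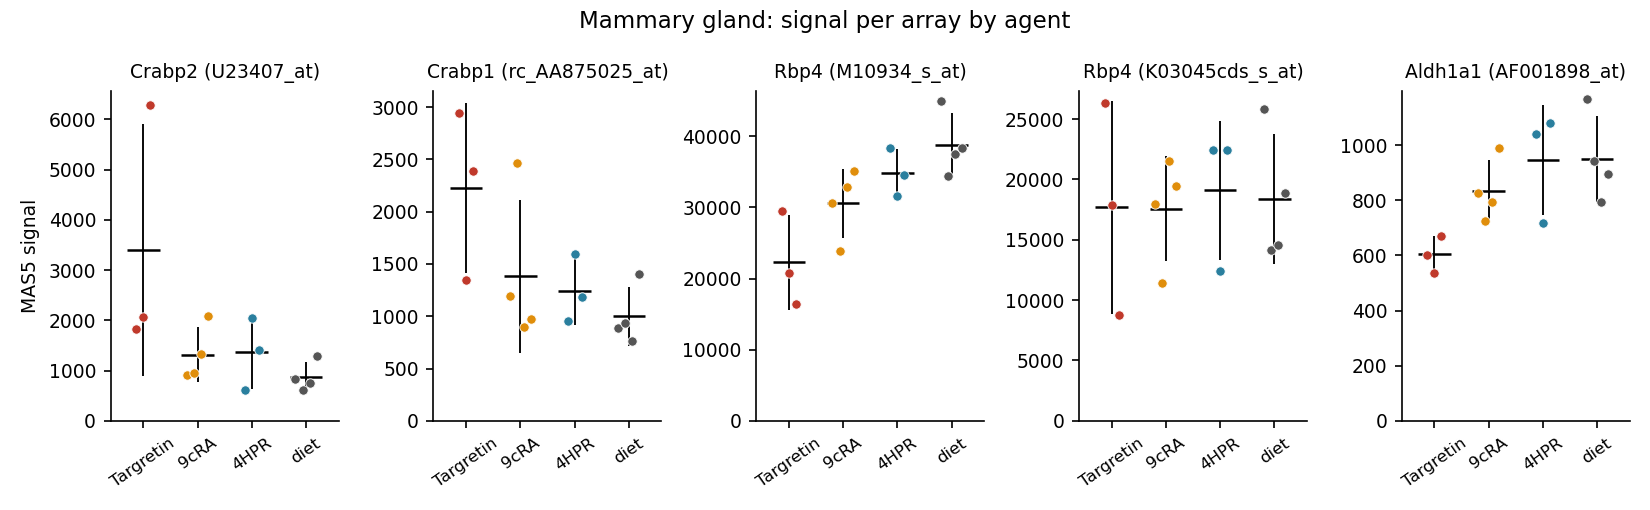
MAS5 signal per mammary gland array with each agent and with diet alone, for Crabp2, Crabp1, 2 Rbp4 probe sets and Aldh1a1; points are arrays, horizontal bars are means and vertical bars are SD. All 3 Targretin arrays lie above diet for Crabp2 and below diet for Rbp4 by M10934_s_at and for Aldh1a1, while Rbp4 by K03045cds_s_at overlaps diet.

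By M10934_s_at, Rbp4 had 29497.3, 20844.0 and 16472.1 in Targretin mammary glands, against 44956.3, 34386.4, 37504.1 and 38277.7 in diet mammary glands. Every Targretin array was lower, the ratio of means was 0.574, and the log2 change was -0.83 ± 0.20 (adjusted p = 0.017). The call was lost without Targretin array 2 (-0.81, adjusted p = 0.061) or array 3 (-0.64, adjusted p = 0.075). By this probe set, 9cRA mammary glands averaged 30597 ± 4861 (n = 4) and 4HPR mammary glands 34848 ± 3353 (n = 3), against 38781 ± 4447 in diet mammary glands (SD, n = 4), and neither passed. The other probe sets did not pass with Targretin: K03045cds_s_at averaged 17679 ± 8801 in Targretin and 18372 ± 5401 in diet mammary glands, and K03045cds_r_at 3714 ± 821 in Targretin and 2567 ± 1292 in diet mammary glands (SD, n = 3 and 4).

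Hepatocyte markers moved with this result. All 11 measured hepatocyte genes passed as lower with Targretin in mammary gland, where 314 of 6059 probe sets tested did. The median log2 change of the hepatocyte genes was -3.84, against 0.11 over all probe sets. Their summed signal was 4271 to 8535 in Targretin, 31623 to 96774 in 9cRA and 49414 to 104832 in 4HPR mammary glands, against 56548 to 100112 in diet mammary glands. Transthyretin (Ttr), the plasma partner of retinol binding protein, averaged 83.9 in Targretin and 13611 in diet mammary glands, and albumin (Alb) 3643 and 32984 in the same order, with no marker at 0 on any array. The summed hepatocyte signal of Targretin mammary glands was 1.23% of the diet liver mean, and that of diet mammary glands 14.1%. Over the same groups Rbp4 by M10934_s_at stood at 50.7% and 88.2% of its diet liver mean. By K03045cds_s_at it stood at 34.4% and 35.8%, and by K03045cds_r_at at 18.1% and 12.5%. The part of the hepatocyte signal in the difference was not tested.

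Aldh1a1 in mammary gland had 602.9, 536.6 and 671.7 in Targretin glands, against 1166.3, 941.7, 794.5 and 895.0 in diet glands. All Targretin arrays were lower, but the change of -0.61 ± 0.21 did not pass (adjusted p = 0.062), except under quantile normalization (adjusted p = 0.029). The hepatocyte genes above were lower on the same arrays, and their part here was not tested. Aldh1a1 had 827.9, 726.4, 791.8 and 987.9 in 9cRA and 1039.7, 718.7 and 1080.7 in 4HPR mammary glands, overlapping diet. Aldh1a2 ranged from 31.6 to 544.5 over the 14 mammary gland arrays and passed with no agent.

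The Targretin change of Aldh1a1 differed between organs by an F test over liver, lung and mammary gland (adjusted p = 0.0011). It was the 1 of 5 member probe sets tested that passed, against 13.3% of all probe sets tested. The F test does not say which organs differ. With Targretin Aldh1a1 was higher in liver, while its lower values in mammary gland did not pass, as given above. On the log2 scale, Aldh1a1 changed by 1.25 more in liver than in lung, and by -0.34 in mammary gland against lung. In lung it had 17140.3, 20272.5 and 15350.8 in Targretin rats, against 15317.5, 24379.0 and 25155.6 in diet rats, which overlapped. For 9cRA and 4HPR, 0 of 5 member probe sets passed this test, against 0.371% and 0% of all. At an unadjusted limma p under 0.05 there were 3 of 5 for Targretin, 0 for 9cRA and 1 for 4HPR. The shares of all probe sets there were 27.4%, 11.8% and 7.07%. Rbp4 by M10934_s_at had an adjusted p of 0.091 for Targretin and 0.48 for 4HPR.

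In lung no member passed with any agent. Aldh1a2 came nearest to a shared pattern, with 869.0, 784.4 and 810.8 in Targretin lungs, 1012.4, 816.3, 899.8 and 1155.6 in 9cRA lungs and 676.8, 780.0, 914.1 and 852.2 in 4HPR lungs, against 1112.9, 1065.6 and 1142.9 in diet lungs. All Targretin and 4HPR arrays and 3 of 4 9cRA arrays were below the lowest diet array. The changes of -0.41 ± 0.19 with Targretin (adjusted p = 0.20) and -0.45 ± 0.17 with 4HPR (adjusted p = 0.94) did not pass, and the agents share the same 3 diet arrays. Aldh1a1 averaged 19449 ± 5105 in 9cRA lungs (n = 4) and 15350 ± 2877 in 4HPR lungs (n = 4), against 21617 ± 5469.65 in diet lungs (SD, n = 3), and neither passed.

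Rbp4 in lung, by M10934_s_at, had 572.1, 1057.9 and 845.9 in Targretin lungs, 1525.4, 899.8, 1250.8 and 1541.8 in 9cRA lungs and 2094.3, 3054.8, 7387.3 and 3559.4 in 4HPR lungs, against 3118.9, 1542.0 and 1540.6 in diet lungs. The Targretin arrays were all below diet and the 4HPR arrays were all above diet arrays 3 and 4, and 2 of them were above diet array 2 as well. The changes of -1.25 ± 0.40 with Targretin (adjusted p = 0.094) and 0.87 ± 0.37 with 4HPR (adjusted p = 1.0) did not pass. Summed hepatocyte signal ranged from 6961 to 8989 in Targretin, 13545 to 19038 in 9cRA and 22272 to 125731 in 4HPR lungs, against 4198 to 38978 in diet lungs. The highest Rbp4 value of the 4HPR lungs (array 3) and of the diet lungs (array 2) each lay on the array with the most hepatocyte signal in its group. Without 4HPR array 3 the 4HPR change was 0.53, and without diet array 2 the Targretin change was -0.91. Diet arrays 3 and 4 had 4198 and 4526 hepatocyte units with 1542.0 and 1540.6 of Rbp4. The other Rbp4 probe set tested in lung was K03045cds_s_at. Its changes were -0.69 ± 0.43 with Targretin, -0.37 ± 0.40 with 9cRA and 0.72 ± 0.40 with 4HPR, and none passed. The part of hepatocyte RNA in the lung values was not tested.

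**Figure D5:**
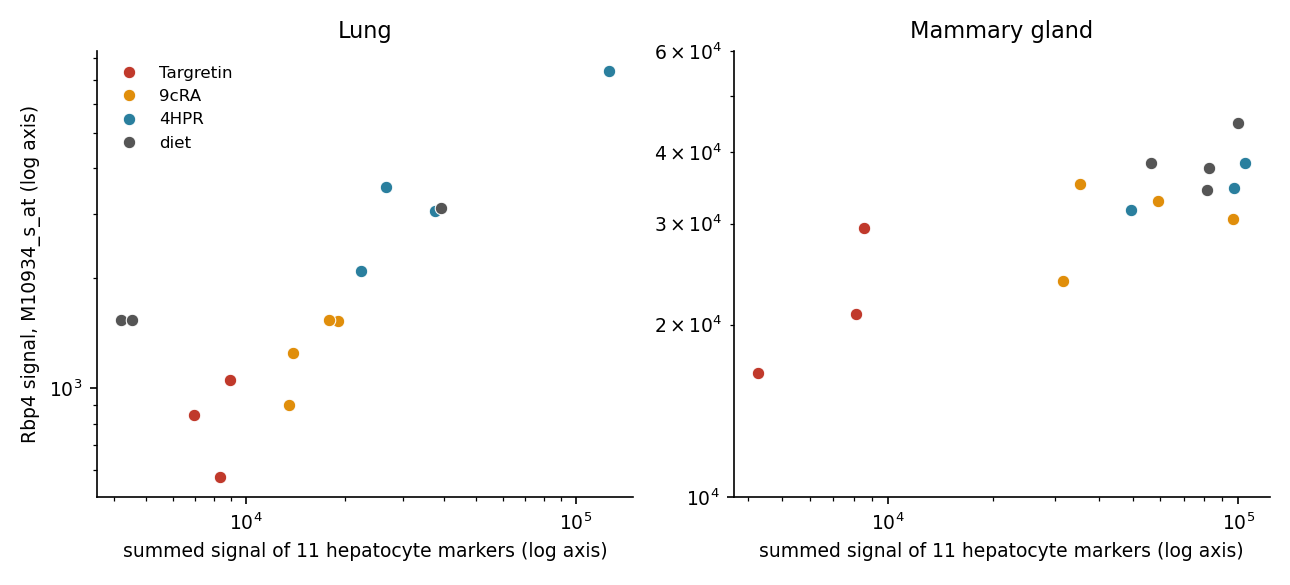
Rbp4 signal (M10934_s_at) against the summed signal of 11 hepatocyte markers on each lung and mammary gland array, both on log axes; colours are the agents. Lung arrays with more hepatocyte signal mostly had more Rbp4, and the 3 Targretin mammary gland arrays lie apart at 4271 to 8535 hepatocyte units with Rbp4 still at 16472 to 29497.

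A list of 50 other retinoid genes, which also holds receptors and lipid genes, was chosen with earlier results of these data known. Nothing is therefore read from its shares. Of the 50 genes, 20 were measured and 18 were tested in liver. There 5 rose and 0 fell with Targretin, against 11.1% of all probe sets passing (median log2 change 0.30, against -0.02 over all probe sets). These were Adh4, an alcohol dehydrogenase that oxidises retinol (1.10 ± 0.26), Cyp26b1, which breaks down retinoic acid (2.34 ± 0.45), Cyp2c22, a cytochrome P450 that acts on retinoic acid in rat (2.48 ± 0.12), the receptor Rxrg (0.60 ± 0.16) and Fabp5, a fatty acid carrier that also binds retinoic acid (1.30 ± 0.39). With 9cRA 1 of 18 rose in liver, Cyp2c22 (2.26 ± 0.11), against 5.16% of all probe sets passing. With 4HPR 2 of 18 rose, Cyp26b1 (2.49 ± 0.41) and Cyp2c22 (2.19 ± 0.11), against 2.78%, and 0 fell with either. In lung, 2 of 15 rose with Targretin, Cyp26b1 (2.98 ± 0.62) and the receptor Rara (0.84 ± 0.20), against 2.39% of all, and 0 passed with 9cRA or with 4HPR, where 0% of all did. In mammary gland, 1 of 15 rose with Targretin, the lipoprotein receptor Scarb1 (1.33 ± 0.29). There 2 fell, Ttr (-7.02 ± 0.45) and Cyp2c22 (-2.85 ± 0.70), against 13.1% of all probe sets passing in either direction. Ttr is a hepatocyte marker, and Cyp2c22 averaged 205 in Targretin and 2425 in diet mammary glands, against 11737 in diet livers. No listed gene passed with 9cRA or 4HPR in mammary gland, where 0% of all did.

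Within the organ where each member was highest in diet rats, the 3 genes whose signal followed it most closely were found by Pearson's r of log2 signal over all arrays of that organ. These values describe arrays that share agents and tissue makeup, and carry no test. Rdh7 in liver (15 arrays) was closest to Fn3k (0.949), Acsm2 (0.919) and Cldn3 (0.914), and Rdh10 to St13 (0.902), Ctsc (0.881) and Gclm (0.881). Rdh16 was closest in liver to Asph (0.889), Pax4 (0.84) and Arih2 (0.838), and Rbp4 by M10934_s_at to Sctr (0.861), Ttr (0.772) and Pafah1b3 (0.771). In lung (14 arrays), Aldh1a1 was closest to Pla1a (0.857), Med6 (0.812) and Cpq (0.797), and Aldh1a2 to Chrnd (0.81), Krt14 (0.774) and P2ry14 (0.698). In mammary gland (14 arrays), Crabp1 was closest to Nedd8 (0.875), Copz1 (0.874) and Ssr4 (0.868). Crabp2 was closest there to Acta2 (0.888), Muc4 (0.881) and Lad1 (0.865).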

How the data were processed

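The samples were total RNA of liver, lung and mammary gland hybridised to 1-colour Affymetrix rat arrays, 43 in all. The authors deposited 1 value per probe set and array, an intensity (MAS5 signal) on a linear scale, made with MAS5 per the submitters' processing notes; the version is not given in the sources used here, and no detection calls were used. Gene symbols came from GEO's platform annotation: 7018 probe sets had 1 gene, 308 several and 1473 none, and no gene was named from a probe set with several. The 59 control probe sets were left out of the tests.

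Python 3.11.15 with pandas 2.3.3 read the deposited values, which were used without further scaling. A pseudocount of 38.1 signal units (the 10th percentile of all values) was added before log2, which understates changes of low probe sets. R 4.3.3 with limma 3.58.1 (lmFit, eBayes with a trend) fitted the 4 groups of each organ together, over 6084 liver, 5935 lung and 6059 mammary gland probe sets. Diet organs were compared and Targretin, 9cRA and 4HPR changes were tested for a difference between organs in 1 fit of the 12 groups (F test, 5120 probe sets that met the filter in every organ). The Benjamini-Hochberg adjustment ran over all probe sets of a comparison. The scripts were tested on simulated data. Different probe sets of a gene were kept apart.

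Every member probe set that met the filter was counted, but values are not given for every agent and organ. Of the other retinoid genes, up to 6 passing with the smallest adjusted p per comparison were named. Members, lists and rules were chosen with earlier results of these data known. Same-numbered arrays were treated as unpaired: the correlation of their deviations from the group means within an organ had a median of 0.026 or less and fell below 0 for some pairs. The labels do not say whether arrays of 1 agent and number in different organs came from 1 rat. Their correlations had medians of 0.127 (liver and lung), 0.0603 (mammary gland and lung) and 0.0393 (liver and mammary gland), and some pairs were below 0. Arrays of the same agent with other numbers had lower medians, of -0.0244, -0.0245 and -0.0162 in the same order. Whether such arrays share a rat was not tested. An alternative with such arrays as a random replicate block was chosen after seeing the data. Alternatives were quantile normalization, no filter, a pseudocount 4 times larger, a replicate block, array quality weights, only the groups compared, leaving out 4 arrays that stood apart (array 3 of Targretin mammary gland, array 2 of Targretin lung, array 4 of 4HPR liver and array 2 of diet liver) and leaving out each array in turn.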

Additional observations from a re-analysis of the deposited data

Results flagged for a closer look

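The Targretin change of Aldh1a1 differed between the 3 organs by the test of that difference (limma F test, adjusted p = 0.0011). Rbp4 by K03045cds_r_at was flagged because all 3 Targretin arrays lay below the diet mean in liver and all 3 lay above it in mammary gland, with a difference of the log2 changes, liver minus mammary gland, of -0.98. That difference was not tested with the filter, which the probe set did not meet in lung; without a filter the limma F test over the 3 organs gave an adjusted p of 0.34. By Dixon's ratio no array stood far from the rest in the 53 sets of 4 arrays checked, of which chance flags about 1 in 20. Each set was a member probe set in a group of 4 arrays. Groups of 3 arrays were not checked: every Targretin group, diet lung and 4HPR mammary gland. The check therefore says nothing about single Targretin arrays.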

How the results depend on the processing

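Of 42 log2 differences and F tests of members with an unadjusted p under 0.05, none reversed in 648 refits, 611 kept their side of the threshold, 17 no longer passed and 20 passed only in the refit. The 59 other log2 differences of members were less stable. Of these, 26 changed sign in at least 1 alternative, and 5 passed in the same direction in at least 1. The number of members passing with 9cRA in liver was 3 under quantile normalization and 1 with array quality weights, without the 4 arrays that stood apart or with only the 2 groups compared. Rbp4 by K03045cds_r_at passed in each of these, and Aldh1a1 and Rdh16 in none. The rest of the 3 had an unadjusted limma p of 0.05 or more as reported. With 4HPR the number passing was 2 in liver under quantile normalization and 3 in lung with array quality weights. With Targretin in mammary gland it was 0 without the arrays that stood apart, 0 to 3 on leaving out single arrays (3 without diet array 4), and 3 under quantile normalization, array quality weights or the larger pseudocount. With Targretin the number differing between organs was 1 to 2 on leaving out single arrays and 2 with the replicate block, where Rdh10 passed (adjusted p = 0.044); the replicate block changed no other call. The cause of these shifts was not tested. The median over all probe sets shifted by over 0.1 under quantile normalization in 3 comparisons: to -0.0029 instead of -0.10 for 4HPR in liver, to -0.071 instead of -0.37 for diet liver minus lung and to 0.024 instead of -0.19 for diet mammary gland minus lung. Over all probe sets, the number passing ranged with the alternatives from 420 to 901 for Targretin, 203 to 483 for 9cRA and 92 to 443 for 4HPR in liver. In lung it ranged from 0 to 697, 0 to 964 and 0 to 398, and in mammary gland from 338 to 1308, 0 to 147 and 0 to 0, in the same order; for the difference between organs it was 526 to 792, 1 to 82 and 0 to 89. Signals under the filter, such as those of Crabp1 and Crabp2 in liver and lung, are too close to background to show a change.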
